A study of Mus musculus with 21 samples.

Results

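10 genes of the immediate early response were followed across mouse mammary tumours: the AP-1 subunits Fos, Fosb, Fosl1, Jun and Junb, the zinc finger factors Egr1 and Egr2, the nuclear protein Ier2, the orphan nuclear receptor Nr4a1, and Myc. They were taken by symbol from a count table of 24028 genes, 10 of 10 were found, and all 10 were among the 15792 genes that passed a filter on low counts. The tumours arose in WAP-Cre/PIK3CA-H1047R mice: Cre recombinase, driven by a milk protein promoter, turns on PIK3CA with an activating mutation, the catalytic subunit of the kinase PI3K-alpha. Every tumour of the study carried that genotype, and its source tissue is given only as tumour. In the relapse group (7 tumours, treatment BYL719_Relapse) and the stable group (7 tumours, BYL719_Stable) the animals had received alpelisib (BYL719), which inhibits PI3K-alpha, and in the vehicle group (7 tumours, DMSO) they had received the solvent. The design text calls one treated group responding where the sample labels write relapse, and the labels are followed here. The sources used here do not give age, dose or time of collection. Titles carry a code that took 7 values in relapse, 4 in stable and 3 in vehicle tumours; 2 codes occurred in both treated groups and 0 were shared with vehicle, so code and vehicle treatment cannot be told apart. What a code stands for is not stated, and 1 animal may have given several tumours of a group. The p-values set group differences against the variation between tumours, whether or not these share an animal. The promoter limits the model to cells that have expressed the milk protein gene.

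Immediate early genes are transcribed within minutes of a growth factor, stress or adhesion signal, without new protein synthesis. In the usual scheme ERK and other kinases act on factors already bound at their promoters, such as SRF with its ELK partners and the CREB and ATF proteins. FOS and JUN proteins pair to form AP-1, EGR and NR4A proteins bind sites of their own, and the transcripts decay quickly. MYC, which pairs with MAX, is induced early too but is also held up by growth signalling, including the PI3K and mTOR pathway, and drives ribosome production and growth in mammary epithelium.

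RefSeq promoter windows of GRCm38.p6 were used for Fos, Fosb, Jun, Junb, Egr2 and Nr4a1, and no window of Egr1, Fosl1, Ier2 or Myc was searched. They are shown for the AP-1 genes and for Nr4a1, the most variable of the 10, with TGACG, the core of the cAMP response element bound by CREB and ATF factors, in capitals (CGTCA where it reads on the other strand). The windows of Fos (chr12:85473640-85473889, plus strand), Jun (chr4:95052223-95052472, minus strand), Junb (chr8:84978749-84978998, minus strand) and Nr4a1 (chr15:101266596-101266845, plus strand) end at the base before a transcription start. For Nr4a1 that start lies inside the annotated gene (chr15:101253902-101274795). For Fosb, the AP-1 gene with the largest difference from vehicle, a site of 30 bases is shown (chr7:19310088-19310117, minus strand). Jun is included because its window lacked the motif.
Fos: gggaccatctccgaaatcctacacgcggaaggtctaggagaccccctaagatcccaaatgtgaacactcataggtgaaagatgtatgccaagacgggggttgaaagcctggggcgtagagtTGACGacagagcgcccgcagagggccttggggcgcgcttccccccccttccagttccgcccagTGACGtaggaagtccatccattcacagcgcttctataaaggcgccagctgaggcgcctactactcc
Fosb: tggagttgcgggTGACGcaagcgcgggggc
Jun: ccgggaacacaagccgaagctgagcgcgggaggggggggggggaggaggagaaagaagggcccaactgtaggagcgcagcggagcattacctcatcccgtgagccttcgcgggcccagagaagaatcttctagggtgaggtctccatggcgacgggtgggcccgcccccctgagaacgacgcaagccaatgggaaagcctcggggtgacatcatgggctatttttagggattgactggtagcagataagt
Junb: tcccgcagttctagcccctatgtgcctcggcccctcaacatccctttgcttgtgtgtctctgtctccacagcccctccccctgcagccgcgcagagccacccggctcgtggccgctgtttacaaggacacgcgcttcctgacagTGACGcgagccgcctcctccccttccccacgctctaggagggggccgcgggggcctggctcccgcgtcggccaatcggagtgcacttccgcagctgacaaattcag
Nr4a1: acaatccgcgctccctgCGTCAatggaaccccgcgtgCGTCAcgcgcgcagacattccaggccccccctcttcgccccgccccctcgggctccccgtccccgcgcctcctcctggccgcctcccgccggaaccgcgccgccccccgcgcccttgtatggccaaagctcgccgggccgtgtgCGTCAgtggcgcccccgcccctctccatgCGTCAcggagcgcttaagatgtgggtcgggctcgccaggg
TGACG was searched on both strands of the 250 bases before each start, and it was present for 5 of the 6 genes searched, against 19.8% of the 27025 genes in the table. It began at -129 and -66 from the start in Fos, at -60 in Fosb and at -106 in Junb. Nr4a1 held 4 copies on the other strand. Egr2 also held it, together with a CArG box, the site of SRF, which was present for 1.62% of genes and for no other of the 6. Egr2 had several windows, before different starts, and a match in any of them counted. CACGTG, the E-box bound by MYC and MAX, was in an Egr2 window (6.86% of genes), TATAAA in Fos (14.3%), and TGANTCA, the AP-1 site, in 0 of the 6 (7.82%). Such matches describe the letters only, and no match overlapped one of another motif. Only these exact patterns were searched, so variants of a site and sites farther upstream would be missed.

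Total counts per tumour ranged from 17722622 to 21431465 in relapse, 13337848 to 24648463 in stable and 21043399 to 24873844 in vehicle tumours. All 8 luminal epithelial markers were detected in every tumour, with summed levels of 1058 to 2740 CPM (read counts scaled to a common library size) in relapse, 1379 to 3823 CPM in stable and 1348 to 3281 CPM in vehicle tumours. Vehicle 2, 6 and 7 stood apart: their 10 myoepithelial and basal markers (Acta2, Cnn1, Krt5, Krt14 and others) summed to 17808, 23707 and 10750 CPM, against 4131 CPM or less in the other 18 tumours. The summed level of 13 skeletal muscle markers ran from 271 to 26012 CPM in relapse, 451 to 17681 CPM in stable and 246 to 1259 CPM in vehicle tumours. Stable 1 differed as well, with the lowest myoepithelial and basal level of the 21 (232 CPM) and the highest luminal level (3823 CPM). Values without vehicle 2, 6 and 7 are given for the calls below. In bulk tissue, fewer cells of a type and less RNA per cell cannot be told apart.

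The 10 genes differed widely in level. Per length of transcript, in RPKM computed from the table's gene widths, Jun stood first and Junb second in all 3 groups, with Jun at 37.4 ± 6.75 RPKM in relapse, 39.5 ± 9.80 RPKM in stable and 37.9 ± 5.73 RPKM in vehicle tumours (mean ± SD, n = 7 each). Myc followed them in relapse (30.1 ± 8.26 RPKM) and stable tumours (25.5 ± 6.72 RPKM), while in vehicle tumours (15.7 ± 7.54 RPKM) Fos and Egr1 also stood above it. Fosb and Fosl1 were the lowest 2 in every group. Fosb averaged 0.902 ± 0.492 RPKM in relapse, 0.880 ± 0.527 RPKM in stable and 4.09 ± 5.18 RPKM in vehicle tumours. Neighbours in the order overlapped in range throughout, except that Egr2 lay above Fosb in every stable tumour. Spread among tumours differed as well. Within groups the SD of log2 CPM was 0.30 for Jun and 0.38 for Ier2, but 1.14 for Fosb and 1.24 for Nr4a1, whose spread exceeded that of 92.6% of tested genes.

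**Figure D1:**
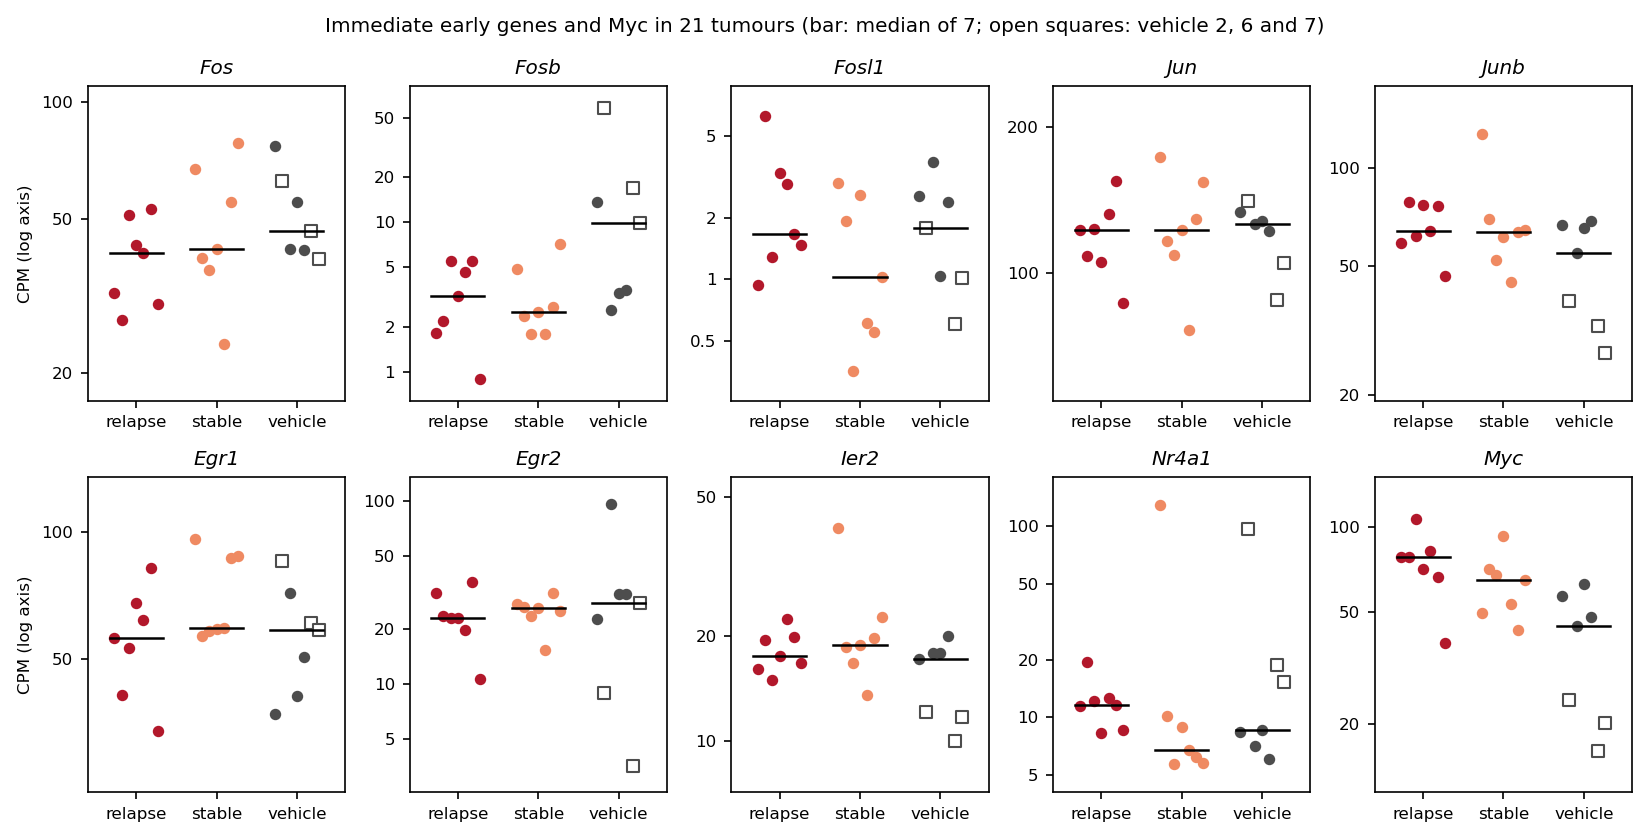
CPM of each gene (log axis) in 7 relapse, 7 stable and 7 vehicle tumours, left to right; points are tumours, bars are group medians and open squares are vehicle 2, 6 and 7. Fosb reached 58.0 CPM in vehicle 2 and at most 7.15 CPM in treated tumours, the open squares lie lowest for Myc, Junb and Ier2, and Nr4a1 has 1 high tumour in each of the stable and vehicle groups.

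Against vehicle tumours, Fosb was lower in relapse and in stable tumours, and Myc was higher in relapse tumours. The other 8 genes passed the test in neither comparison. By edgeR's quasi-likelihood test, with p-values adjusted over all tested genes and a threshold of 0.05, 2 of the 10 genes passed between relapse and vehicle, where 11.2% of all tested genes passed (1 higher, with a background of 5.42%, and 1 lower, with 5.80%). Between stable and vehicle 1 of the 10 passed, against a background of 15.1% (0 higher, with 6.90%, and 1 lower, with 8.16%). Counts of 2 and 1 in 10 are close to what those shares give, and both comparisons use the same vehicle tumours. Median log2 fold changes over the 10 genes were -0.03 for relapse and 0.08 for stable tumours against vehicle, beside -0.02 and -0.0048 over all tested genes. For 0 of the 10 genes did the CPM ranges of any 2 groups fail to overlap, where 3.01% (relapse and vehicle), 2.87% (stable and vehicle) and 0.0823% (relapse and stable) of tested genes had ranges apart.

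**Figure D2:**
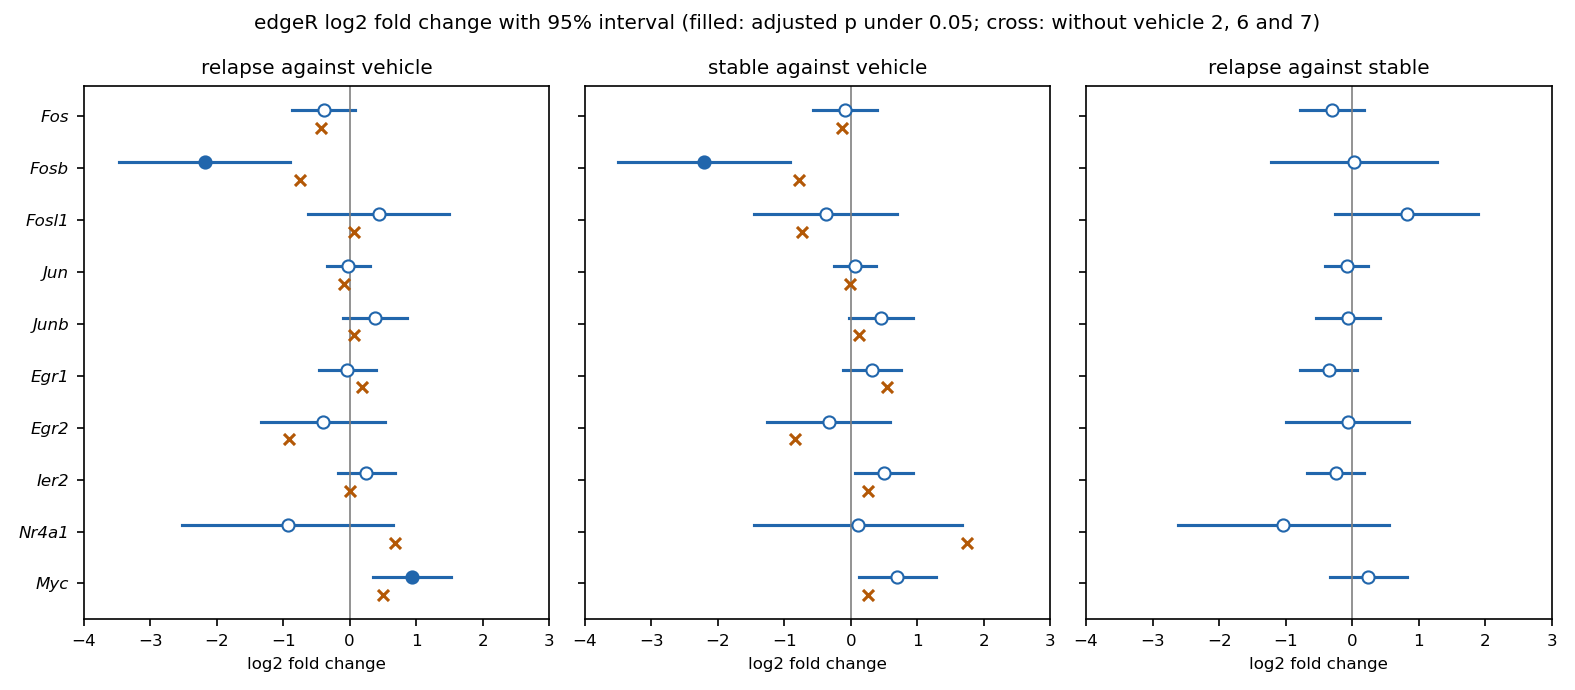
Log2 fold change of each gene with its 95% interval in 3 panels, each treated group over vehicle and then relapse over stable tumours (edgeR, 21 tumours); filled circles passed an adjusted p under 0.05 and crosses are the values without vehicle 2, 6 and 7. Fosb lies at -2.18 and -2.21 with all vehicle tumours and at -0.75 and -0.78 without those 3.

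Fosb (Entrez 14282, chr7:19302696-19310118, GRCm38.p6), a FOS protein that pairs with JUN proteins and gives rise to the long-lived truncated form studied in brain, had 0.902, 3.24 and 5.53 CPM as lowest, median and highest values in relapse tumours. In stable tumours these were 1.79, 2.53 and 7.15 CPM, and in vehicle tumours 2.60, 9.85 and 58.0 CPM. Vehicle 1, 2, 6 and 7 lay above all 14 treated tumours, while vehicle 3, 4 and 5 lay within the treated range. Fosb was 4.52-fold lower in relapse than in vehicle tumours (edgeR log2 fold change -2.18, SE 0.62, adjusted p = 0.0275). Of the relapse tumours 7 of 7 were under the median of the vehicle tumours. Stable tumours were 4.62-fold lower than vehicle tumours (-2.21 ± 0.62, edgeR adjusted p = 0.0230), again with 7 of 7 under that median. The call rested on vehicle 2: without it the log2 fold changes were -1.29 for relapse (adjusted p = 0.118) and -1.31 for stable tumours (adjusted p = 0.1004), and without vehicle 2, 6 and 7 they were -0.75 (0.445) and -0.78 (0.400). The relapse call was also lost without relapse 1 (adjusted p = 0.0543) or relapse 2 (0.0513). Both calls were lost, at a similar size, when counts were summed by title code, which leaves 14 codes by group in place of 21 tumours (-2.22, adjusted p = 0.0547, in relapse and -2.08, 0.127, in stable), and in a fit of the 2 groups alone (-2.17, 0.0555, and -2.18, 0.0626). In voom, used in place of edgeR, Fosb passed neither with code as a random effect (-1.58, 0.131, and -1.53, 0.128) nor with sample quality weights and no code term (-0.79, 0.303, and -1.11, 0.112).

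Fos, the founding member of the family, did not pass the test. Its lowest, median and highest values were 27.5, 40.7 and 52.9 CPM in relapse, 23.8, 41.8 and 78.3 CPM in stable and 39.4, 46.4 and 77.0 CPM in vehicle tumours. Relapse and vehicle tumours overlapped between 39.4 and 52.9 CPM, and stable tumours spanned that stretch. The log2 fold change was -0.39 (95% interval -0.87 to 0.09, edgeR adjusted p = 0.279) for relapse and -0.09 (-0.56 to 0.39, 0.827) for stable against vehicle tumours. Fosl1, which encodes FRA1, an AP-1 subunit tied to invasion in breast cancer cells, was scarce. It had 0.940, 1.66 and 6.24 CPM in relapse, 0.359, 1.03 and 2.95 CPM in stable and 0.607, 1.78 and 3.74 CPM in vehicle tumours, with relapse 2 the highest of all. Log2 fold changes were 0.44 (adjusted p = 0.626) for relapse and -0.38 (0.645) for stable against vehicle tumours in edgeR, and counts per tumour ran from 5 to 140. With vehicle 2, 6 and 7 left out they were 0.07 (adjusted p = 0.960) and -0.73 (0.477). The gene overlaps Ccdc85b in the annotation, and the sources used here do not give the strand setting of the counting, so reads of the pair are possibly mixed.

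Jun, the most abundant per length, was also the steadiest. It had 87.1, 123 and 155 CPM in relapse, 76.6, 123 and 173 CPM in stable and 88.0, 127 and 141 CPM in vehicle tumours. Its log2 fold change was -0.02 (95% interval -0.34 to 0.30, edgeR) for relapse, which turned to 0.04 under upper quartile scaling, and 0.06 (-0.26 to 0.38) for stable against vehicle tumours. Junb, a JUN protein that in many settings restrains growth, had 46.4, 63.8 and 78.4 CPM in relapse and 44.5, 63.2 and 127 CPM in stable tumours. In vehicle tumours it had 26.9, 54.6 and 68.3 CPM, with vehicle 2, 6 and 7 at 38.9, 32.6 and 26.9 CPM, below every treated tumour. Log2 fold changes were 0.39 (adjusted p = 0.288) for relapse and 0.45 (0.192) for stable against vehicle tumours in edgeR, and 0.06 and 0.13 without those 3.

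Egr1, a zinc finger factor induced by ERK through SRF sites, had 33.6, 56.0 and 82.1 CPM in relapse, 56.7, 59.2 and 96.5 CPM in stable and 37.0, 58.5 and 85.3 CPM in vehicle tumours. Medians of the 3 groups lay close together. Its log2 fold change was -0.03 (-0.46 to 0.40) for relapse, which turned to 0.03 under upper quartile scaling, and 0.32 (-0.11 to 0.75, edgeR adjusted p = 0.303) for stable against vehicle tumours. Egr2, its relative known from Schwann cell and T cell biology, had 10.7, 23.0 and 36.2 CPM in relapse and 15.4, 26.0 and 31.7 CPM in stable tumours. Vehicle tumours spread more widely, with 3.59, 27.7 and 96.5 CPM: vehicle 6 was the lowest and vehicle 3 the highest of the 21. The log2 fold changes against vehicle were -0.40 (edgeR adjusted p = 0.606) for relapse and -0.33 (0.640) for stable tumours, and without vehicle 3 they turned to 0.20 and 0.27. Leaving out vehicle 2, 6 and 7 gave -0.91 (adjusted p = 0.127) and -0.84 (0.148). Egr2 overlaps the predicted gene Gm32255, with the same limit as for Fosl1.

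Ier2, a small nuclear protein of the same response, had 14.9, 17.5 and 22.3 CPM in relapse, 13.5, 18.8 and 40.6 CPM in stable and 9.94, 17.1 and 19.9 CPM in vehicle tumours. As for Junb, vehicle 2, 6 and 7 (12.1, 9.94 and 11.7 CPM) lay below every treated tumour and stable 1 was the highest. Its log2 fold change was 0.25 (edgeR adjusted p = 0.462) for relapse and 0.50 (95% interval 0.07 to 0.93, adjusted p = 0.105) for stable against vehicle tumours. Leaving out vehicle 2, 6 and 7 gave 0.0035 and 0.26. Nr4a1 (NUR77), an orphan receptor induced by many stimuli, had 8.28, 11.6 and 19.5 CPM in relapse, 5.68, 6.76 and 129 CPM in stable and 6.09, 8.58 and 96.4 CPM in vehicle tumours. Stable 1 and vehicle 2 held the high values, and the next highest of their groups had 10.2 and 18.7 CPM. The log2 fold changes against vehicle, -0.93 (95% interval -2.51 to 0.65) for relapse and 0.10 (-1.46 to 1.67) for stable tumours, follow these 2 tumours in size and sign. Without stable 1, stable tumours passed as lower than vehicle tumours (-1.66, edgeR adjusted p = 0.0382). Without both, the values were 0.17 (adjusted p = 0.708) for relapse and -0.56 (0.171) for stable against vehicle tumours, and with vehicle 2, 6 and 7 left out they were 0.68 (0.673) and 1.75 (0.215).

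Myc (Entrez 17869, chr15:61985341-61990361, GRCm38.p6) had 38.7, 78.6 and 107 CPM in relapse tumours. In stable tumours it had 43.1, 65.1 and 93.2 CPM, and in vehicle tumours 16.0, 44.7 and 62.8 CPM. Relapse 7 was the lowest treated tumour and the other 6 relapse tumours lay above every vehicle tumour, while vehicle 2, 6 and 7 (24.3, 16.0 and 20.2 CPM) lay below all 14 treated tumours. Myc was 1.92-fold higher in relapse than in vehicle tumours (log2 fold change 0.94 ± 0.28, SE, 95% interval 0.36 to 1.52, edgeR adjusted p = 0.0353). Between stable and vehicle tumours the estimate was 1.62-fold (0.70 ± 0.28, interval 0.12 to 1.28), which did not pass (adjusted p = 0.0945). That relapse passed and stable did not does not show a difference between them: relapse against stable was 0.24 (-0.34 to 0.82). With vehicle 2, 6 and 7 left out, the log2 fold change was 0.50 for relapse (adjusted p = 0.213) and 0.26 for stable tumours (0.518). The relapse call was lost without vehicle 2 (adjusted p = 0.0762), vehicle 6 (0.0664) or vehicle 7 (0.0745), and without relapse 1, 2, 3, 5 or 6 (0.0504 to 0.0839). The stable call was made without vehicle 4 (0.85, adjusted p = 0.0436). In voom with code as a random effect the relapse value was 1.06 (adjusted p = 0.0261), and in edgeR with counts summed by code it was 0.87 (0.0795). A fit of the relapse and vehicle groups alone gave 0.94 (0.0634), and voom with sample quality weights gave 0.62 (0.0839).

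Between relapse and stable tumours, both under BYL719, 0 of the 10 genes passed the edgeR test. The background there is 0%: 0 of 15792 genes passed, with 751 at an unadjusted p under 0.05, and the Wald test of DESeq2 called 6, none of these 10. Log2 fold changes of relapse against stable lay between -1.03 (Nr4a1) and 0.82 (Fosl1). The intervals were narrow for Jun (-0.08, 95% interval -0.40 to 0.24) and wide for Nr4a1 (-2.62 to 0.55), Fosl1 (-0.25 to 1.89) and Fosb (0.03, -1.22 to 1.28). Nr4a1 was split between mean and median: relapse tumours averaged 12.04 ± 3.71 CPM and stable tumours 24.6 ± 45.9 CPM (SD, n = 7 each), yet 7 of 7 relapse tumours lay above the stable median. Without stable 1 its log2 fold change was 0.73 (edgeR adjusted p = 1.00). Fosl1 lay above the stable median in 6 of 7 relapse tumours, as did Myc.

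Levels of the genes were set beside the marker lists. Across 21 tumours the Spearman correlation with the summed myoepithelial and basal level was -0.44 for Myc and 0.48 for Fosb, given as a description since both values come from the same library. Without those 3 tumours it was -0.12 for Myc and 0.18 for Fosb over 18 tumours. For Junb it was -0.19 with and 0.28 without them, for Ier2 -0.25 and 0.19, and for Fosl1 0.27 and 0.57. Of the 10 myoepithelial and basal markers 7 were lower in relapse and 7 in stable than in vehicle tumours, and none of the 10 was at 0 in any tumour. Without vehicle 2, 6 and 7, 0 of the 10 passed in either comparison by edgeR, with median log2 fold changes of 0.24 and -0.20 in place of -3.37 and -3.47. The skeletal muscle level had a Spearman correlation of 0.52 with Myc and -0.45 with Fosb, and 0.32 and -0.23 without the 3 tumours. Of its 13 markers 12 were higher in relapse and 8 in stable than in vehicle tumours, and Ckm and Myl1 were at 0 in at least 1 tumour. Without the 3 vehicle tumours 0 of the 13 passed by edgeR (medians 4.44 and 2.496), and with counts summed by code 4 passed in relapse and 0 in stable tumours. The summed level of 8 T and NK cell markers had Spearman correlations of -0.71 with Myc, -0.70 with Junb and -0.68 with Ier2, and of -0.56, -0.53 and -0.50 without the 3 tumours. That level was low, at 4.28 to 17.1 CPM in relapse, 5.97 to 24.4 CPM in stable and 8.66 to 33.3 CPM in vehicle tumours, and Cd3d and Nkg7 were at 0 in at least 1 tumour. These correlations were picked from those of the 10 genes with 10 marker lists, and others were of like size. Ier2 had -0.70 with endothelial markers (-0.59 without the 3 tumours) and Junb -0.60 with adipocyte markers (-0.67). With erythroid markers Jun had -0.65 (-0.58) and Fos -0.64 (-0.70). With the muscle score as a covariate in edgeR, Fosb was at -1.29 (adjusted p = 0.894) and Myc at 0.67 (0.740) for relapse against vehicle. The muscle markers themselves differed by group, with a median summed level of 9374 CPM in relapse and 326 CPM in vehicle tumours. That fit therefore cannot cleanly separate muscle content from group. The part of these markers in the results was not tested further.

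**Figure D3:**
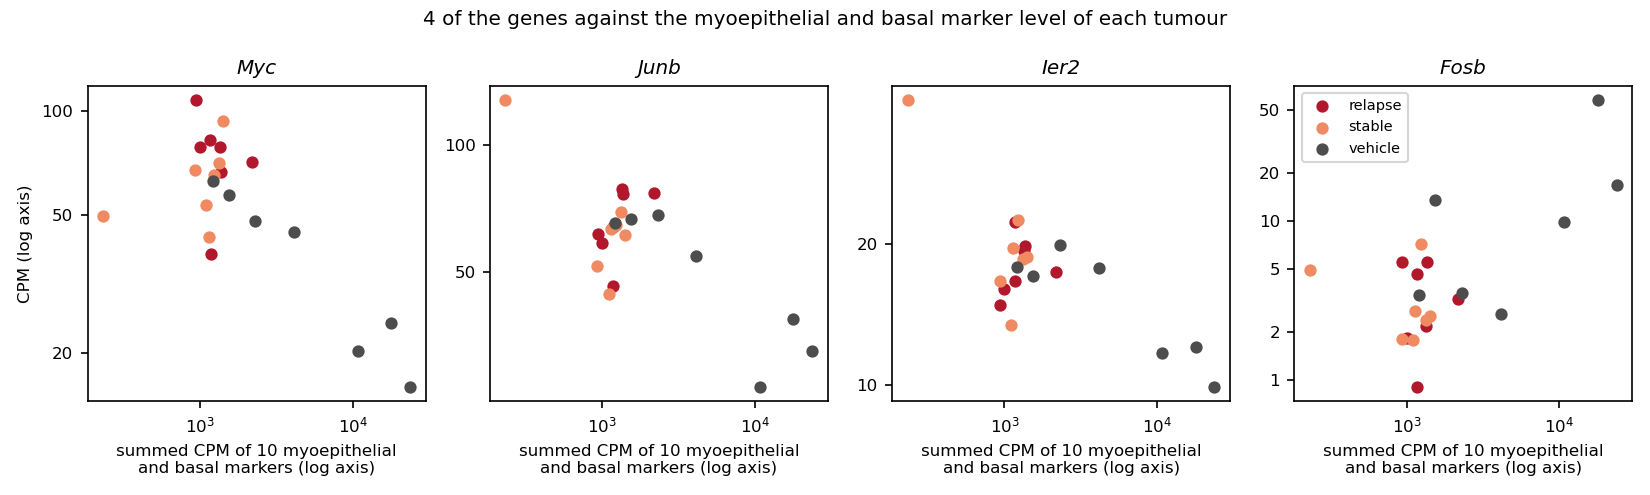
CPM of Myc, Junb, Ier2 and Fosb against the summed CPM of 10 myoepithelial and basal markers in relapse, stable and vehicle tumours (both axes log; points are tumours). The 3 vehicle tumours with the highest marker levels (10750 CPM or more) hold the lowest Myc, Junb and Ier2 values, and 1 of them the highest Fosb value of 58.0 CPM.

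The 10 genes did not vary as 1 block. Of 45 pairs, 5 had a Spearman correlation of log2 CPM over 0.5 across 21 tumours, 9 were below 0, and the median was 0.22. Fos went with Jun (Spearman 0.77, Pearson 0.76) and with Fosb (0.73, 0.64), and Junb with Ier2 (0.76, 0.89). The remaining pairs over 0.5 were Fosl1 with Junb (0.58) and Jun with Ier2 (0.57). Deviations from the group means gave 0.78 for Fos and Jun, 0.71 for Fos and Fosb and 0.87 for Junb and Ier2. Without vehicle 2, 6 and 7 the values over 18 tumours were 0.80, 0.85 and 0.62. Myc was nearest to Junb (0.45), which came to 0.12 without those 3 tumours. Nr4a1 reached 0.39 with Fosb and less with the others. Both genes of a pair are measured in the same library and scaled by the same total.

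**Figure D4:**
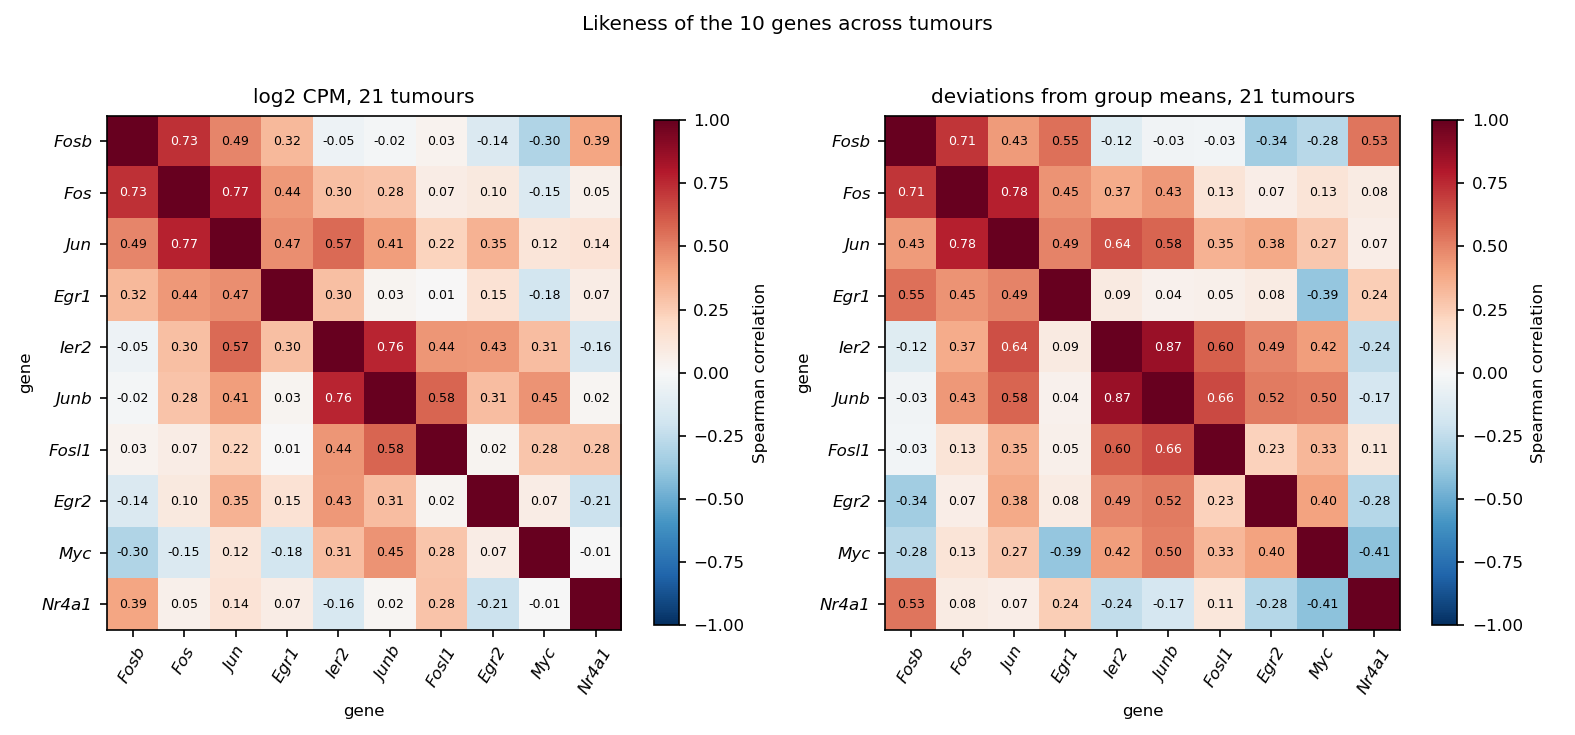
Spearman correlation between the 10 genes over 21 tumours, from log2 CPM (left) and from deviations from group means (right); red is positive and blue negative. The cells for Fos with Jun (0.77) and Junb with Ier2 (0.76) stand out, and Myc with Junb reaches 0.45 on the left and 0.50 on the right.

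Among the 12840 genes whose mean log2 CPM reached 1, the 5 nearest in pattern by Spearman correlation over 21 tumours were taken for 3 of the genes. For Fos they included Churc1 (0.84), Anapc13 (0.79), Jun (0.77) and Cdyl (0.77). For Fosl1 they were Ttll12 (0.87), Sh2d5 (0.86), Cyp26b1 (0.84), Arhgef39 (0.80) and Tomm6 (0.79). For Myc they were Atg2a (0.89), Peg3 (0.87), Zfp703 (0.84), Kmt5c (0.84) and Slc38a4 (0.82), at 0.86, 0.79, 0.75, 0.75 and 0.72 without vehicle 2, 6 and 7. Each is among the highest of 12840 values, so they are descriptions only.

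In 8 further lists of the pathway, 26 named genes gave 33 calls against vehicle. Of these, 12 held in edgeR with each tumour left out in turn: Arc, Jdp2, Mycn, Hspa1a and Hspa1b in both comparisons, and Rrs1 and Zfp36l1 in stable tumours. Without vehicle 2, 6 and 7, 10 of the 33 held, and with counts summed by title code 11 did. In fits of only the 2 groups compared 14 held, and with replicate number in the fit 14 did. With the skeletal muscle score as a covariate 1 held, while in the Wald test of DESeq2 all 33 did. Over all tested genes, 1772 passed for relapse against vehicle (11.2%, with 5.42% higher and 5.80% lower). For stable against vehicle 2378 passed (15.1%, with 6.90% higher and 8.16% lower). The list counts below are to be read beside these shares. Over all tested genes the counts became 527 and 847 without vehicle 2, 6 and 7, and 23 and 322 with the muscle score.

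The wider AP-1 and bZIP list held 8 tested genes of 9. Between relapse and vehicle 1 was lower and 0 higher, with a median log2 fold change of -0.0092. Jdp2, a bZIP repressor that binds AP-1 sites, fell to 8.38 ± 2.36 CPM in relapse tumours, against 31.0 ± 21.5 CPM in vehicle tumours (-1.89 ± 0.39, SE, edgeR adjusted p = 0.00600). In stable tumours Jdp2 averaged 8.40 ± 3.32 CPM (-1.88, adjusted p = 0.00439). Vehicle 2, 6 and 7 had 49.7, 61.3 and 48.5 CPM of Jdp2, and without them the values were -0.78 (0.137) and -0.76 (0.133). In stable tumours Atf2 (0.42, adjusted p = 0.0446) and Atf7 (0.48, 0.0498), which pair with JUN, were higher than in vehicle tumours, and the list's median was 0.29. Neither passed without the 3 vehicle tumours (0.244 and 0.113). Without stable 1, which held 230 CPM of Atf2 against 101 to 137 CPM in the other stable tumours, Atf2 was at 0.26 (adjusted p = 0.0596) and Atf7 at 0.36 (0.0887).

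Of the EGR and NR4A relatives and their co-repressors, 5 of 6 genes were tested. In edgeR 0 passed in either comparison with vehicle, and the median log2 fold changes were -0.12 for relapse and 0.02 for stable tumours. Of 26 other immediate early genes, 1 was higher and 2 lower in relapse than in vehicle tumours (median 0.0033), and 2 were higher and 1 lower in stable tumours (median 0.16). Arc, an activity-regulated cytoskeletal gene controlled by SRF in neurons, was lower in both treated groups. It had 1.92, 4.84 and 17.7 CPM in relapse, 5.09, 5.88 and 18.4 CPM in stable and 8.62, 34.6 and 174 CPM in vehicle tumours, with vehicle 2 the highest. In edgeR it was at -2.83 ± 0.60 (log2 fold change ± SE, adjusted p = 0.00709) for relapse and at -2.60 ± 0.59 (0.00844) for stable against vehicle tumours, and -1.50 (0.106) and -1.26 (0.157) without vehicle 2, 6 and 7. Pim1, a kinase gene, was higher in relapse tumours (0.98, adjusted p = 0.0447) and the clock gene Per1 lower (-0.64, 0.0257). In stable tumours the mRNA-decay factor Zfp36l1 (0.60, 0.0105) and the zinc finger factor Klf6 (0.72, 0.0319) were higher. Klf6 had 965 CPM in stable 1 and 267 to 612 CPM in the other stable tumours, and was at 0.48 (0.0555) without it. None of Pim1, Per1, Zfp36l1 and Klf6 passed without vehicle 2, 6 and 7.

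Upstream of the promoters, 14 genes of the serum response and the ERK pathway were tested. Between relapse and vehicle 0 passed in edgeR (median 0.02), and between stable and vehicle 4 were lower and 0 higher (median -0.0024). The 4 were Srf, the serum response factor (-0.67, adjusted p = 0.0338), its co-activator Mkl1 (-0.34, 0.0458), and the ERK kinases Map2k1 (-0.37, 0.0419) and Map2k2 (-0.32, 0.0257). Srf averaged 17.9 ± 4.66 CPM in stable and 28.6 ± 9.80 CPM in vehicle tumours (SD, n = 7 each). Map2k1 passed without vehicle 2, 6 and 7 as well (-0.43, adjusted p = 0.0486) and the other 3 did not. In that fit 3 of the list passed, 1 higher and 2 lower, with Mkl2 (higher) and the ERK-activated kinase gene Rps6ka1 (lower) beside Map2k1. With each tumour left out in turn, the stable call ended in 15 of 21 fits for Map2k1 and 15 for Mkl1. It ended in 8 for Srf and 5 for Map2k2. With counts summed by title code 0 of the 14 passed in stable tumours.

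In the MYC and MAX network 13 genes were tested, of which 2 were higher and 1 lower in relapse than in vehicle tumours (median 0.15). Mycn, the paralogue of Myc, had 1.78, 2.25 and 2.84 CPM in relapse, 0.217, 2.01 and 2.53 CPM in stable and 0.366, 0.392 and 0.994 CPM in vehicle tumours. The relapse and vehicle ranges did not overlap, and stable 1 was the lowest of the 21. Mycn was scarce, with 40 to 57 counts in relapse, 5 to 46 in stable and 7 to 21 in vehicle tumours. Mycn was 4.64-fold higher in relapse than in vehicle tumours (log2 fold change 2.21 ± 0.37, SE, edgeR adjusted p = 0.00210) and 3.38-fold higher in stable tumours (1.76 ± 0.37, 0.00501). Mycn was called in relapse tumours also without vehicle 2, 6 and 7 (1.97, adjusted p = 0.0319) and was at 1.51 (0.0596) in stable tumours. It was also called with counts summed by title code (0.00783 and 0.0359). Mnt, a repressor that competes with MYC for MAX, was higher in both treated groups: 32.8 ± 3.41 CPM in relapse (0.35 ± 0.09, SE, adjusted p = 0.0215) and 31.7 ± 1.94 CPM in stable tumours (0.30 ± 0.09, 0.0370), against 25.8 ± 3.77 CPM in vehicle tumours. Mnt passed without vehicle 2, 6 and 7 (0.0269 and 0.0290) and not with counts summed by code (0.0533 and 0.140). Mlx, a MAX-like partner, was lower in relapse tumours (-0.54, adjusted p = 0.0421). In stable tumours, where 3 of the list were higher and 1 lower (median 0.20), the repressor Mxi1 was higher (0.54, 0.0223) and Max lower (-0.29, 0.0466). Mlx (adjusted p = 0.103), Mxi1 (0.145) and Max (0.154) did not pass without vehicle 2, 6 and 7, nor with counts summed by code (0.185, 0.189 and 0.247).

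Of 20 genes that MYC is known to activate, most of them in ribosome assembly and the rest in metabolism, translation, the cell cycle and DNA repair, 0 passed between relapse and vehicle in edgeR and the median log2 fold change was -0.03. Between stable and vehicle 4 were lower and 0 higher (median -0.15): Rrs1 (-0.59, adjusted p = 0.0200) and Nolc1 (-0.59, 0.0370), both of ribosome assembly, the cap-binding factor Eif4e (-0.58, 0.0356) and the helicase Ddx21 (-0.43, 0.0495). Without vehicle 2, 6 and 7, Rrs1 (0.00669), Nolc1 (0.0258) and Ddx21 (0.0380) passed, and the medians of the list were -0.29 for relapse and -0.36 for stable tumours. With each tumour left out in turn, the stable call ended in 0 of 21 fits for Rrs1 and 10 for Nolc1. It ended in 11 for Eif4e and 18 for Ddx21. With counts summed by title code 0 of the 20 passed in either comparison. Of 12 AP-1 target genes, 2 were higher in relapse (median 0.45) and 1 in stable tumours (median 0.58). Hmga2, a chromatin protein of embryonic and tumour cells, averaged 9.21 ± 8.42 CPM in relapse, 10.02 ± 11.5 CPM in stable and 1.87 ± 1.99 CPM in vehicle tumours (2.30, adjusted p = 0.0362, and 2.42, 0.0252). Without stable 1 the stable value was 1.61 (0.0645). Timp1, a metalloproteinase inhibitor, averaged 23.0 ± 17.4 CPM in relapse and 8.55 ± 4.41 CPM in vehicle tumours (1.43, 0.0325). Neither passed without the 3 vehicle tumours, where the medians were -0.03 for relapse and 0.06 for stable tumours.

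**Figure D5:**
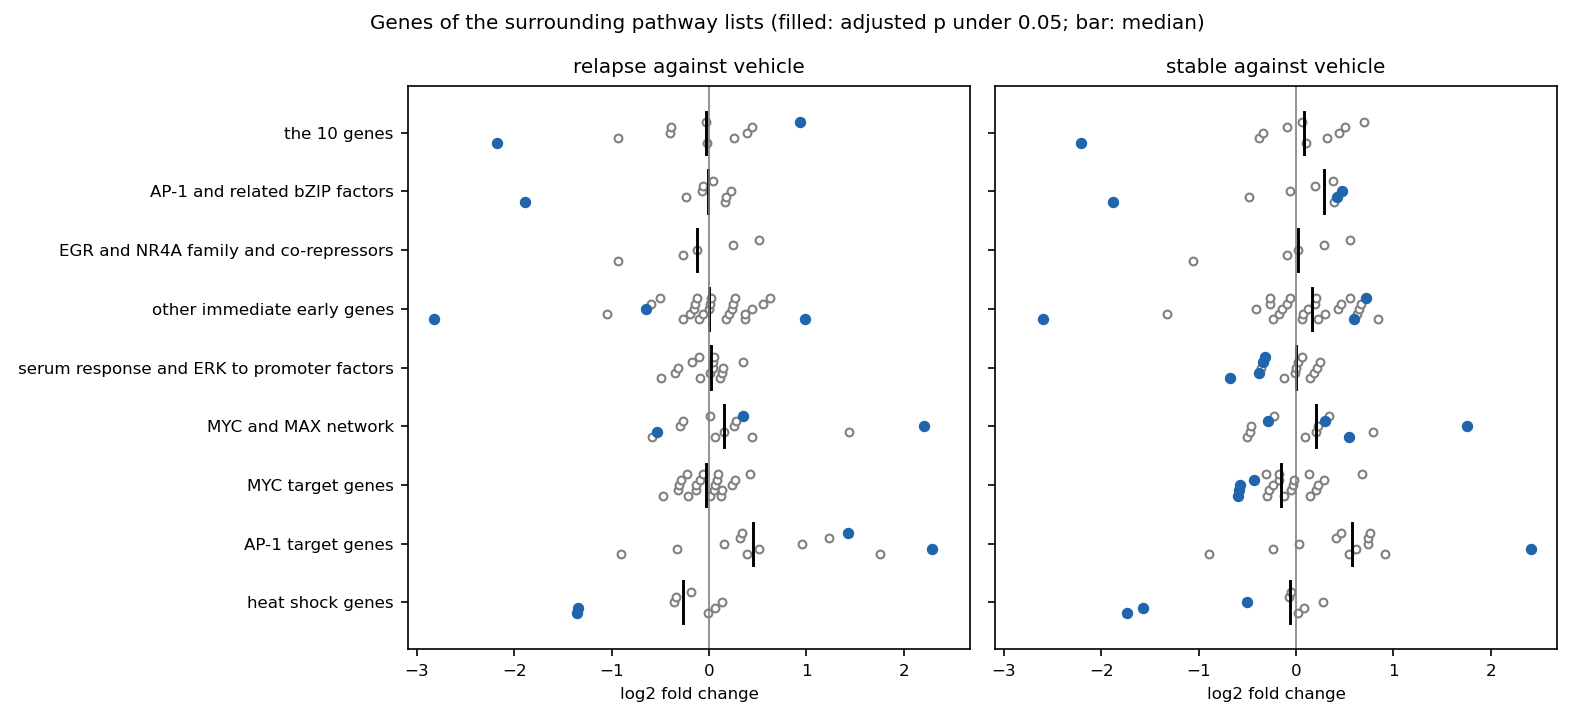
Log2 fold change of every tested gene of 8 pathway lists and of the 10 genes, for relapse against vehicle (left) and stable against vehicle (right); filled points passed an adjusted p under 0.05 in edgeR and bars are list medians. Arc, Fosb and Jdp2 lie farthest to the left among the filled points and Mycn and Hmga2 farthest to the right.

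Heat shock genes, chaperones often induced by stress together with immediate early genes, gave 2 lower of 8 in relapse (median -0.26) and 3 lower in stable tumours (median -0.06). Hspa1a fell to 40.2 CPM on average in relapse and 30.8 CPM in stable tumours, against 103 CPM in vehicle tumours (-1.35, edgeR adjusted p = 0.00962, and -1.74, 0.00189). Its near-identical copy Hspa1b gave -1.35 (0.0110) and -1.57 (0.00425), and reads may be split between them. Dnajb1 was lower in stable tumours (-0.50, 0.0403). Without vehicle 2, 6 and 7, Hspa1a, Hspa1b and Dnajb1 passed in stable tumours, and 0 of the 8 passed in relapse tumours by edgeR. Relapse against stable gave 0 calls in all 8 lists in edgeR.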

How the data were processed

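Polyadenylated RNA of 21 frozen tumours was sequenced as stranded single-end libraries, per the labels' protocols. The submitters' processing notes list build mm10, edgeR, Picard 2.9.2, SAMtools 1.3.1 and STAR 2.5.2a. The sources used here do not give their roles, the annotation or the strand setting. Raw counts per gene, without normalization, were deposited by the authors in 24028 rows. An extra leading cell was present in 10202 of them, and the last 25 cells of every row were used.

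Groups came from the titles. Counts were filtered with filterByExpr by group (15792 genes kept), given TMM factors and compared by the quasi-likelihood test of edgeR 4.0.16 (R 4.3.3) over all 21 tumours, without covariates. Benjamini-Hochberg adjustment ran over all tested genes, and a gene passes where its adjusted p is under 0.05. CPM uses TMM-scaled totals, RPKM also the table's gene width, and log2 CPM a prior count of 2. SE was taken as the log2 fold change over the root of F, and intervals cover 95%. Total counts of 13337848 to 24873844 set the counting precision, with the smallest count of the 10 genes at 5. Tumours of 1 group differed by a chi-square of at least 17.6 per degree of freedom, which is more than counting noise gives. Each tumour was counted as 1 sample. The chi-square does not show that tumours sharing a title code are independent.

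The named genes are the 10, every passing gene of 8 pathway lists (at most 4 per list and comparison, lowest p first) and the 5 nearest in pattern to Fos, Fosl1 and Myc. Of the 5 for Fos, 1 is not reported here. The genes, lists, tests and alternatives were chosen with earlier results of these data known. Alternatives were other scalings, the DESeq2 (1.42.0) Wald test, limma (3.58.1) voom, no filter, 2-group fits, title code, replicate number or muscle score in the fit, and leaving out tumours. The fit without both stable 1 and vehicle 2, and correlations without vehicle 2, 6 and 7, were added after the data were seen. Scripts were tested on simulated counts. Sequences are from RefSeq tables of GRCm38.p6, read by Entrez identifier.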

Additional observations from a re-analysis of the deposited data

Results flagged for a closer look

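In groups of 7 tumours a value was picked out where the highest or lowest tumour stood apart on the log2 CPM scale by more than 0.568 of the group's range (Dixon's criterion). Over 108 groups 18 tumours' values were picked out, 4 of them in the 30 groups of the 10 genes, and chance picks out about 1 in 20 groups. Nr4a1 was high in stable 1 at 129 CPM (others 5.68 to 10.2) and in vehicle 2 at 96.4 CPM (others 6.09 to 18.7). Junb was high in stable 1 at 127 CPM (others 44.5 to 69.3), and Egr2 was low in stable 5 at 15.4 CPM (others 23.8 to 31.7).

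Stable 1 was also the highest of its group for Atf2 (230 CPM), Ddx21 (252 CPM) and Eif4e (107 CPM), and the lowest for Max (38.1 CPM) and Mycn (0.217 CPM). Vehicle 7 was the lowest vehicle tumour for Eif4e (59.8 CPM) and Map2k1 (66.5 CPM) and the highest for Map2k2 (71.7 CPM) and Mnt (34.2 CPM). Vehicle 2 was the highest for Atf7 (97.7 CPM), vehicle 3 for Mycn (0.994 CPM) and vehicle 6 the lowest for Timp1 (1.91 CPM). Relapse 5 was the highest relapse tumour for Map2k1 (96.0 CPM) and relapse 3 for Per1 (76.1 CPM).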

How the results depend on the processing

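The calls for Fosb and Myc ended when single tumours were left out and when counts were summed per title code, which also leaves fewer samples. Fosl1 had as few as 5 counts in a tumour, so its counting precision was the lowest. The SE of its log2 fold change in edgeR was not the largest. Against vehicle it was 0.51 for relapse and 0.51 for stable tumours. Nr4a1 had 0.76 and 0.75, and Fosb 0.62 and 0.62. Of the log2 fold changes below that changed sign, 1 passed the test (Nr4a1 in stable against vehicle tumours without stable 1, -1.66). Where a setting changed a count or a sign, the cause was not tested beyond the tumours or terms that the setting names. DESeq2 size factors in edgeR, upper quartile factors and no filter kept all counts of passing genes within 1.5 times those of the report.

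Of the 10 genes, 2 passed for relapse and 1 for stable against vehicle. These became 0 and 0 with counts summed per title code, in fits of only the 2 groups compared, with sample quality weights in voom, with the skeletal muscle score, without vehicle 2, 6 and 7, and without stable 1 and vehicle 2 (chosen after seeing the data). Voom with a random effect of title code, which changed the tool as well and estimated a correlation of -0.04 within a code, gave 1 and 0. Over all genes, 1772 passed for relapse and 2378 for stable against vehicle. Counts summed per code gave 955 and 592, the muscle score 23 and 322, leaving out vehicle 2, 6 and 7 gave 527 and 847, and fitting 2 groups alone gave 964 for stable tumours. DESeq2's Wald test called 6 genes for relapse against stable.

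The titles do not say whether their replicate numbers pair the tumours. In deviations from group means, same-numbered tumours correlated from -0.24 to 0.12 (relapse and vehicle) and -0.25 to 0.36 (stable and vehicle). For relapse and stable tumours the range was -0.26 to 0.18. In each comparison 1 of 7 pairs was over 0.1. Few tumours correlated best with their own number: 1 of 7 for relapse and vehicle and 1 of 7 for stable and vehicle. For relapse and stable tumours 0 of 7 did. Such correlations cannot show whether same-numbered tumours were collected or processed together. With a replicate block 987 genes passed for relapse and 1251 for stable against vehicle, and 1 (Myc) and 0 of the 10. In that block fit Nr4a1 was at -0.43 for stable against vehicle and 0.033 for relapse against stable.

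The other sign changes, in log2 fold change, were as follows. For relapse against vehicle, upper quartile scaling gave Jun 0.041 and Egr1 0.034. Sample quality weights gave Egr1 0.25, Fosl1 -0.11 and Nr4a1 0.42, DESeq2 gave Nr4a1 0.18, the muscle score gave Egr1 0.29 and Nr4a1 0.021, and the code's random effect gave Egr2 0.11. Leaving out vehicle 2, 6 and 7 gave Egr1 0.19 and Nr4a1 0.68, and leaving out stable 1 and vehicle 2 gave Egr1 0.091, Jun 0.030 and Nr4a1 0.17. For stable against vehicle, sample quality weights gave Jun -0.069 and Nr4a1 -0.17, DESeq2 gave Nr4a1 -0.47, the muscle score Fos 0.035, summed counts Nr4a1 -0.055, and the code's random effect Egr2 0.24 and Nr4a1 -0.26. Leaving out vehicle 2, 6 and 7 gave Jun -0.0062, and leaving out stable 1 and vehicle 2 gave Nr4a1 -0.56. For relapse against stable, sample quality weights gave Jun 0.052, Junb 0.13 and Nr4a1 0.59, DESeq2 gave Nr4a1 0.65, the muscle score Egr2 0.032, summed counts Egr2 0.0050 and Fosb -0.14, and the code's random effect Fosb -0.051 and Nr4a1 0.039. Leaving out stable 1 and vehicle 2 gave Jun 0.018, Junb 0.16 and Nr4a1 0.73.

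With each tumour left out in turn, 1156 to 2671 genes passed for relapse against vehicle, 1470 to 3272 for stable against vehicle and 0 to 4 for relapse against stable. The count for relapse against vehicle moved most without vehicle 6 (1156), vehicle 2 (1160) and stable 1 (2671), and that for stable against vehicle without vehicle 6 (1470), stable 1 (3272) and vehicle 2 (1496). Of the 10 genes 0 to 2 passed in either comparison with vehicle and 0 between the treated groups. For relapse against vehicle log2 fold changes ranged from -0.15 to 0.075 (Egr1), -0.62 to 0.20 (Egr2), -0.091 to 0.025 (Jun) and -1.10 to 0.16 (Nr4a1). For stable against vehicle they ranged from -0.53 to 0.27 (Egr2), -0.24 to 0.034 (Fos), -0.032 to 0.15 (Jun) and -1.66 to 1.295 (Nr4a1). For relapse against stable they ranged from -0.20 to 0.039 (Egr2), -0.15 to 0.31 (Fosb), -0.17 to 0.014 (Jun), -0.14 to 0.16 (Junb) and -1.27 to 0.73 (Nr4a1).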

Other observations

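A pair of title codes was held by a relapse and a stable tumour each, so the treated groups can be set side by side within a code, as values with no test. In relapse 5 all 10 genes were higher than in stable 5, and in relapse 6 6 of the 10 were higher than in stable 7. The 6 that were higher in both pairs were Fosl1, Jun, Junb, Egr2, Nr4a1 and Myc. Jun was nearly level in relapse 6 and stable 7 (154.5 against 154.1 CPM). No share over all tested genes is given for these pairs, so the counts are not a result about the 10 genes. Stable 5 had the highest summed skeletal muscle (17681 CPM) and fibroblast (8461 CPM) marker levels of the stable tumours. Relapse 5 had 7620 and 1767 CPM. Nr4a1 had 12.6 CPM in relapse 5 against 6.76 CPM in stable 5, and 11.6 CPM in relapse 6 against 5.75 CPM in stable 7. Myc had 82.2 CPM in relapse 5 against 53.3 CPM in stable 5, and 66.4 CPM in relapse 6 against 65.1 CPM in stable 7. Fos had 40.7 CPM in relapse 5 against 23.8 CPM in stable 5, and 52.9 CPM in relapse 6 against 78.3 CPM in stable 7.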
